A study of Mus musculus with 32 samples.

Results

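The IL-1 family of cytokines and receptors was followed through LPS stimulation of macrophages with and without Nur77. Its 10 members were taken by name: the ligands Il1a, Il1b, Il18 and Il33, the receptor antagonist Il1rn, the IL-18 binding protein Il18bp, and the receptor genes Il1r1, Il1r2, Il1rap and Il1rl1. They are 10 of 25067 genes with 1 transcript each in the deposited table. They were taken by family rather than by a measured value, but with earlier results of these data known. Of these, 8 were among the 11279 genes with a mean over 1 RPKM, a level scaled for depth and transcript length, in at least 1 group. The other 2, Il1r1 and Il1r2, had at most 40 and 10 counts in any library and are described by their counts.

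IL-1α, encoded by Il1a, and IL-1β, encoded by Il1b, activate the same receptor, which is formed by the Il1r1 product and its accessory chain from Il1rap. IL-1 receptor antagonist, from Il1rn, occupies that receptor without signalling, and the type II receptor, from Il1r2, binds IL-1 as a decoy. IL-18 is held in check by IL-18 binding protein, and IL-33 acts through ST2, encoded by Il1rl1, which also uses the accessory chain. IL-1β and IL-18 are made as precursors that caspase-1 cleaves in inflammasomes, so transcript levels do not show how much active cytokine was released. In macrophages, LPS acting on TLR4 is a classical inducer of Il1a and Il1b.

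RNA-seq was done on bone marrow-derived macrophages (BMDMs) from male mice aged 6 to 12 weeks. BMDM-WT came from wild-type littermates. BMDM-Nur77-KO, for which the labels give the genotype as cre, came from whole-body knockouts, in which Cre driven by the CMV promoter had removed loxP-flanked Nr4a1 sequence and had then been bred out. The parents with Cre were C57Bl6/J, and the paper does not give the strain of the parents with loxP-flanked Nr4a1. All cells had been differentiated in medium conditioned by L929 cells. Both genotypes were measured at 0, 1, 5 and 18 h of 100 ng/ml LPS, with 4 libraries in each of the 8 groups. The number of animals behind the 4 replicates is not given in the sources used here, so p-values measure the spread between these samples, which may be technical. The depth was 8742362 to 15780926 counts on genes per library.

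The targeted gene, Nr4a1, had 15.5 to 25.5 CPM (counts scaled for depth) in BMDM-WT and 4.42 to 6.92 CPM in BMDM-Nur77-KO at 0 h, and 358 to 483 against 146 to 244 CPM at 1 h. Its transcript was thus lower in every BMDM-Nur77-KO library at both times, but not absent. By 18 h it had at most 5 counts per library in both genotypes. In all libraries the 6 macrophage markers were above 3 counts, with a summed level of 9670 to 18000 CPM. The 6 markers of mast cells and basophils, cells known for ST2, summed to 0.246 to 5.34 CPM, with Fcer1a, Mcpt4 and Tpsb2 at 0 in all libraries. The 6 fibroblast markers summed to 0.156 to 1.64 CPM in BMDM-WT and 1.22 to 3.96 CPM in BMDM-Nur77-KO, and their part in the results was not tested. Among the BMDM-Nur77-KO libraries, replicate 1 at 5 h and replicate 4 at 18 h stood apart from the rest of their groups, with median correlations of 0.9589 and 0.9809 to the other libraries of the group, against 0.9876 or more elsewhere. Calls between the genotypes that include them are also given without them. No member's call was lost without both, in these comparisons or in the LPS responses and changes over time of BMDM-Nur77-KO. In such bulk samples, fewer cells with a transcript and less of it per cell cannot be told apart.

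Il1a, Il1b and Il1rn lie on mouse chromosome 2. The 250 bases before the start site of each are shown because Il1a and Il1b encode the agonists of the IL-1 receptor and Il1rn their antagonist. The sequences are those of RefSeq on build GRCm38.p6: chr2:129309973-129310222 on the minus strand for Il1a, chr2:129371140-129371389 on the minus strand for Il1b, and chr2:24336610-24336859 on the plus strand for Il1rn. Each runs 5′ to 3′ and ends at the base before the start of transcription that this RefSeq table gives. By the GENCODE annotation, the counted transcripts of Il1a and Il1b start at 129309972 and 129371139, next to their windows. The counted Il1rn transcript, NM_001039701, starts at 24345310 by that annotation, downstream of the window shown. The Il1rn window shown ends near the start of another transcript of the gene, NM_031167, at 24336853. Capitals mark matches to the TATA motif TATAAA and to the AP-1 motif TGAGTCA, which reads TGACTCA on the other strand.
Il1a: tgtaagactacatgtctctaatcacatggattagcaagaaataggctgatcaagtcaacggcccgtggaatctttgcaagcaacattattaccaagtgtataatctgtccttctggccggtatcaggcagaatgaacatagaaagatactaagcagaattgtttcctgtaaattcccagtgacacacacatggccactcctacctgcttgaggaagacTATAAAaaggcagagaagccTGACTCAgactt
Il1b: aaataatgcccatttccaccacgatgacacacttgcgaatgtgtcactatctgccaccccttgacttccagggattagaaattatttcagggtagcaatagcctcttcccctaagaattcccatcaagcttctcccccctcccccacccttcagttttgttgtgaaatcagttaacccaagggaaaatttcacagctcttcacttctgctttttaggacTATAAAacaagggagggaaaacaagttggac
Il1rn: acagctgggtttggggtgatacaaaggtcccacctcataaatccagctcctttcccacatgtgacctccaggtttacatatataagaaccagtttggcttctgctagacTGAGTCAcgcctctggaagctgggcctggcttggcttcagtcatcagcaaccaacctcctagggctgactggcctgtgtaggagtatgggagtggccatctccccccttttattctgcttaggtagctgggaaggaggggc

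Counted from the start site of the RefSeq table, TATAAA lay at -32 to -27 in Il1a and at -31 to -26 in Il1b, and the AP-1 motif at -12 to -6 in Il1a and -141 to -135 in Il1rn. The 3 Il1rn transcripts of the table had nearly the same counts and start at different places, so reads could not be assigned to this start. Over 15 windows for the 10 members, 5 held TATAAA and 2 the AP-1 motif on either strand, and 1, of Il1r1, held the NF-kB consensus. None held NBRE (AAAGGTCA, the element known for binding Nur77), TGACGTCA of the ATF/CREB type, or TTGCGCAA of C/EBP. The other Il1rn windows, which end at 24345290 and 24345370 near the start of the counted transcript, held none of the motifs searched. No matches overlapped those of another motif. Among 32851 mouse promoter windows of this length, 12.4% held TATAAA, 4.46% the AP-1 motif, 3.9% the NF-kB consensus, 1.34% NBRE, 1.55% TGACGTCA and 0.164% TTGCGCAA.

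Il1a and Il1b, the agonists of the IL-1 receptor, were induced within 1 h in both genotypes, and at 18 h both had higher levels in BMDM-Nur77-KO. By 1 h, Il1a had risen by 8.56 ± 0.18 on the log2 scale in BMDM-WT and 7.64 ± 0.18 in BMDM-Nur77-KO, and Il1b by 8.47 ± 0.19 and 8.60 ± 0.20. In BMDM-WT, Il1a was at 2.72, 1.61, 2.40 and 1.66 CPM at 0 h, 806, 799, 658 and 861 CPM at 1 h, 1492, 1368, 1588 and 1689 CPM at 5 h, and 133, 135, 162 and 132 CPM at 18 h. In BMDM-Nur77-KO it was at 1.99, 3.63, 3.35 and 3.93 CPM at 0 h, 647, 603, 653 and 712 CPM at 1 h, 3093, 2390.0, 2391 and 2243 CPM at 5 h, and 683, 547, 636 and 743 CPM at 18 h. The genotypes did not overlap at 5 and 18 h, where all BMDM-Nur77-KO libraries were above all BMDM-WT libraries, and overlapped at 0 and 1 h. In order of level, the 5 h groups of BMDM-Nur77-KO and BMDM-WT were first and second, and the 1 h groups and the 18 h group of BMDM-Nur77-KO came next without differing beyond their spread.

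Il1a was higher in BMDM-Nur77-KO by a log2 fold change of 0.72 ± 0.12 (SE) at 5 h (edgeR quasi-likelihood test, adjusted p = 0.00011) and 2.21 ± 0.13 at 18 h (adjusted p = 7.7e-14). Without the libraries that stood apart these were 0.61 (edgeR, adjusted p = 8.1e-05) and 2.15 (adjusted p = 6.3e-16). At 1 h the log2 fold change was -0.26 (edgeR, adjusted p = 0.28). The value at 0 h was 0.66 ± 0.20 (edgeR, adjusted p = 0.03) on 22 to 58 counts per library, a call that was lost when replicate 2, 3 or 4 of BMDM-Nur77-KO or replicate 2 or 4 of BMDM-WT was left out (adjusted p up to 0.108). From 5 to 18 h, Il1a fell by 3.45 ± 0.14 on the log2 scale in BMDM-WT and by 1.96 ± 0.13 in BMDM-Nur77-KO. This fall differed between the genotypes by 1.49 ± 0.18 (edgeR interaction, adjusted p = 3.3e-07), and by 1.54 without the libraries that stood apart, when it fell by 1.91 in BMDM-Nur77-KO. The rise by 1 h differed by -0.91 ± 0.24 (edgeR interaction, adjusted p = 0.25).

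Il1b was at 3.18, 2.92, 3.90 and 5.06 CPM at 0 h in BMDM-WT, 1536, 1372, 1085 and 1325 CPM at 1 h, 1979, 1985, 2018 and 1987 CPM at 5 h, and 177, 171, 167 and 185 CPM at 18 h. In BMDM-Nur77-KO the values were 1.36, 2.50, 1.83 and 3.46 CPM at 0 h, 1103, 762, 788 and 944 CPM at 1 h, 1998, 1983, 2275 and 2185 CPM at 5 h, and 513, 424, 416 and 381 CPM at 18 h. At 18 h alone the genotypes did not overlap, with BMDM-Nur77-KO higher. The 5 h groups had the highest levels and overlapped, whereas the 1 h groups followed, also overlapping.

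The log2 fold change of Il1b in BMDM-Nur77-KO against BMDM-WT was 1.31 ± 0.14 at 18 h (edgeR, adjusted p = 1.1e-08) and 1.37 without the library that stood apart. It was 0.08 at 5 h (edgeR, adjusted p = 0.67). At 1 h it was -0.56 ± 0.13 with an adjusted p of 0.0066 (edgeR), just inside the limit of 0.58 on the log2 scale. Without replicate 1 or 4 of BMDM-Nur77-KO or replicate 3 of BMDM-WT it passed that limit, with values of -0.68, -0.59 and -0.65. At 0 h it was -0.69 ± 0.21 (edgeR, adjusted p = 0.03), lost without replicate 1 or 3 of BMDM-Nur77-KO or replicate 3 or 4 of BMDM-WT (adjusted p up to 0.153). The 0 h differences of Il1a and Il1b were therefore opposite in sign, small in counts and dependent on single libraries. The fall from 5 to 18 h was by 3.51 ± 0.15 in BMDM-WT and by 2.28 ± 0.14 in BMDM-Nur77-KO, a difference of 1.23 ± 0.19 (edgeR interaction, adjusted p = 2.5e-05). Without the libraries that stood apart, the difference was 1.26 and Il1b fell by 2.25 in BMDM-Nur77-KO.

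The table holds RNAs that overlap both genes. The antisense Il1bos had at most 57 counts, up to 0.351% of those of Il1b after LPS. Gm14023, annotated on the strand opposite to Il1a, had 4 to 2768 counts and up to 14.3% of those of Il1a after LPS. The libraries keep strand information, but the sources used here do not give the strand setting of the counting, so reads from these partners cannot be told apart with certainty.

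**Figure D1:**
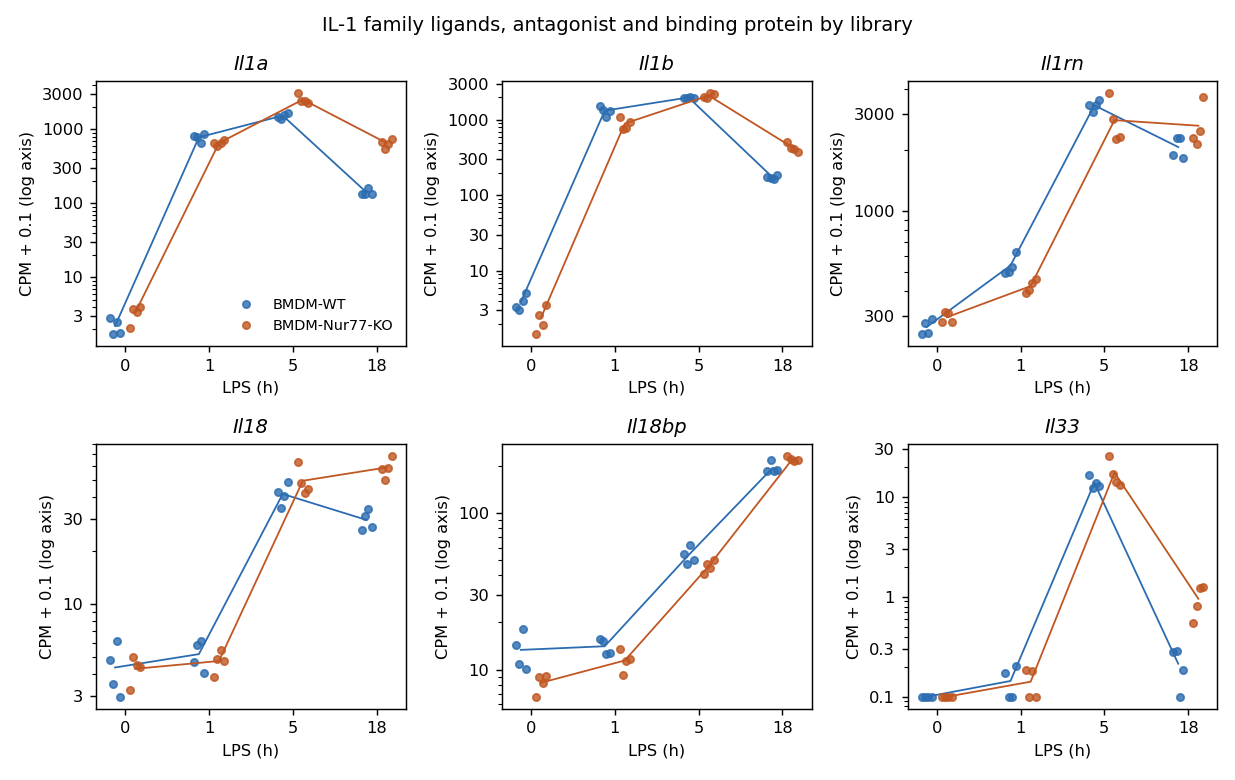
Level of each IL-1 family ligand, of the antagonist Il1rn and of Il18bp by hours of LPS. Points are libraries in CPM + 0.1 on a log axis and lines join group means of 4 libraries. At 18 h all BMDM-Nur77-KO libraries were above all BMDM-WT libraries for Il1a (547 to 743 against 132 to 162 CPM), Il1b, Il18 and Il33.

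With LPS, the counts of called members were read against those of all 11279 genes tested, in comparisons that share their 0 h libraries within a genotype. Calls required a change by more than 1 on the log2 scale and an adjusted p below 0.05. At 1 h, 3 of the 8 tested members rose in BMDM-WT (Il1a, Il1b and Il1rn, with 5.17% of all genes called either way and 3.43% higher) and 2 in BMDM-Nur77-KO (Il1a and Il1b, with 4.54% and 3.28%). At 5 h, 7 rose and 1, Il1rl1, fell in BMDM-WT (33.6%) and in BMDM-Nur77-KO (32.5%). At 18 h, 6 were higher and 1 lower than at 0 h in both genotypes (27.4% and 31.7%), Il1rl1 again being lower. In these counts Il33 passed the expression filter through its 5 h groups alone, and its call at 18 h in BMDM-WT rests on 5 counts. From 5 to 18 h, 5 members fell and 1, Il18bp, rose in both genotypes (30.1% of all genes called in BMDM-WT and 28.5% in BMDM-Nur77-KO). Those that fell were Il1a, Il1b, Il33, Il1rap and Il1rl1.

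Between the genotypes, the limit was 0.58 on the log2 scale. At 0 h, Il1a and Il1rl1 were higher and Il1b and Il18bp lower in BMDM-Nur77-KO, 4 of 8 tested members against 4.89% of all genes. At 1 h edgeR and DESeq2 called 0 of the 8 (2.85% of all genes by edgeR), of which 5 had an unadjusted p under 0.05, and Il1b and Il1rl1 also an adjusted one. At 5 h, Il1a and Il1rl1 were higher, which is 2 of 8 (8.55% of all genes either way, 5.4% higher). At 18 h, Il1a, Il1b, Il18 and Il33 were higher, 4 of 8 and all of them ligands (9.75% of all genes either way, 5.79% higher). The LPS response relative to 0 h differed between the genotypes for 0 of the 8 by edgeR at 1 h (0.0621% of all genes, with 3 members at an unadjusted p under 0.05 and 1 called by DESeq2) and at 5 h (3.12%, with 2 and 1). By 18 h it differed for Il1a, Il1b, Il18 and Il18bp (9.4% of all genes either way, 5.66% higher), with the larger response in BMDM-Nur77-KO for all 4. The change from 5 to 18 h differed for 5 members, the 4 ligands and Il1rn (13.3% either way, 7.63% higher). Of these, Il33 passed the expression filter only through its 5 h groups, which enter this comparison. Its 18 h level in BMDM-WT, here and in the comparison at 18 h, rests on 5 counts.

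**Figure D2:**
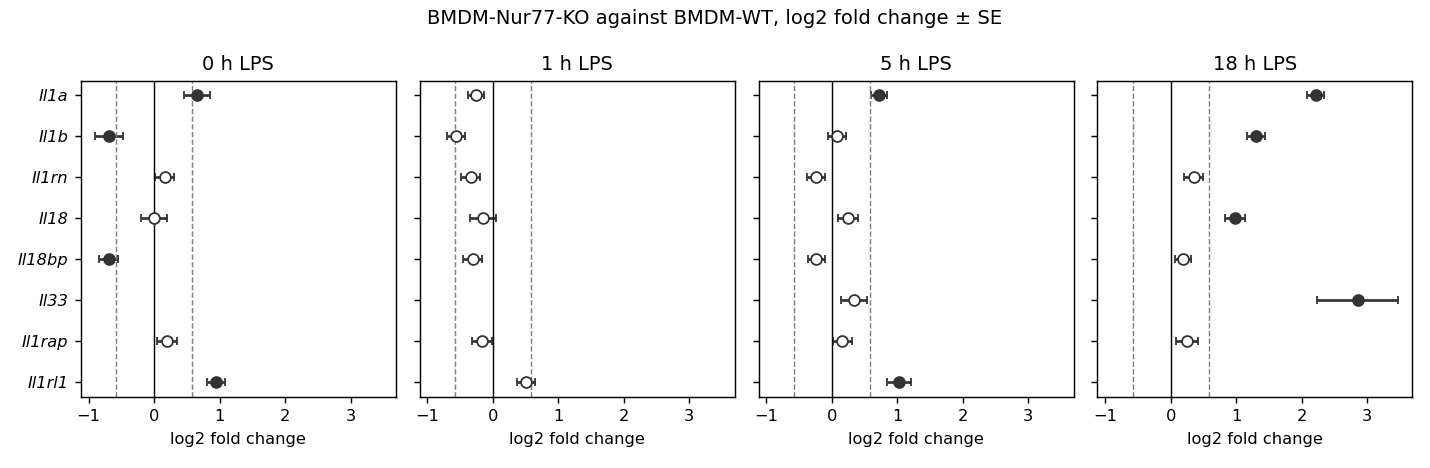
Log2 fold change of BMDM-Nur77-KO against BMDM-WT for the tested members at each time of LPS, with bars of 1 SE from the edgeR fit. Filled points passed an adjusted p of 0.05 and the dashed limits at 0.58 either way, and a member with at most 3 counts in every library of both groups is not drawn. At 18 h the 4 ligands were filled, with values from 0.99 for Il18 to 2.86 for Il33.

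Il1rn, the antagonist, was already at 245, 278, 247 and 293 CPM in BMDM-WT and 282, 314, 312 and 282 CPM in BMDM-Nur77-KO before LPS. At 1 h it was at 492, 499, 529.5 and 624 CPM in BMDM-WT and 391, 404, 440.0 and 459.8 CPM in BMDM-Nur77-KO, where the groups did not overlap. At 5 h it reached 3352, 3087, 3336 and 3527 CPM in BMDM-WT and 3824, 2840.0, 2264 and 2310.0 CPM in BMDM-Nur77-KO. At 5 h the groups overlapped only through replicate 1 of BMDM-Nur77-KO, one of the libraries that stood apart. After 18 h it was at 1885, 2283, 2282 and 1821 CPM in BMDM-WT and 2299, 2131, 2469 and 3643 CPM in BMDM-Nur77-KO, again with overlap.

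The difference of Il1rn between the genotypes was called at no time. Its log2 fold change was 0.16 at 0 h (edgeR, adjusted p = 0.48), -0.34 at 1 h (adjusted p = 0.18), -0.24 at 5 h (adjusted p = 0.2) and 0.35 at 18 h (adjusted p = 0.076). Without the libraries that stood apart, the value at 5 h was -0.43 (edgeR, adjusted p = 0.0018), short of the limit of 0.58, and that at 18 h was 0.15 (adjusted p = 0.27). In that fit the LPS response at 5 h differed between the genotypes by -0.59 (edgeR interaction, adjusted p = 0.0051, against -0.40 with an adjusted p of 0.34 in all libraries). From 5 to 18 h, Il1rn fell by 0.69 in BMDM-WT and by 0.09 in BMDM-Nur77-KO. This difference of 0.59 ± 0.20 had an adjusted p of 0.044 (edgeR interaction), which rose to 0.067 with a replicate block, to 0.062 with DESeq2 scaling, to 0.113 when the 18 h replicate 4 of BMDM-Nur77-KO was left out, and was lost in 10 of 16 fits without a single library, that one included. Without both libraries that stood apart it was 0.58 (edgeR interaction, adjusted p = 0.0021). The rise of Il1rn in BMDM-WT at 1 h, 1.01 on the log2 scale, lay at the limit of 1 and was 0.93 without replicate 4 of the 1 h group.

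The balance of antagonist and agonist was followed as the ratio of Il1rn to Il1a or Il1b in each library, per length of transcript, with no test. Il1rn exceeded Il1b 39.5- to 65.1-fold at 0 h in BMDM-WT and 55.6- to 142-fold in BMDM-Nur77-KO. At 1 h the ratio had dropped to 0.219 to 0.333 in BMDM-WT and 0.242 to 0.381 in BMDM-Nur77-KO, below 1 in all 8 libraries. At 5 h it was 1.06 to 1.21 in BMDM-WT and 0.68 to 1.31 in BMDM-Nur77-KO, with overlap. At 18 h it was 6.73 to 9.35 in BMDM-WT and 3.06 to 6.53 in BMDM-Nur77-KO, with every BMDM-Nur77-KO library lower. The distance of these ratios from 1 depends on the Il1rn transcript: its 3 transcripts had nearly the same counts but are 1986 (the one used), 728 and 2474 bases long. With all transcripts of a gene summed, which counts shared reads more than once, the mean log2 ratio to Il1b at 1 h was -0.27 in BMDM-WT and -0.04 in BMDM-Nur77-KO, rather than -1.86 and -1.62, and that to Il1a was 1.03 and 0.95, rather than -0.55 and -0.63. A change of length moves both genotypes alike.

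The ratio of Il1rn to Il1a separated the genotypes earlier. At 1 h it was 0.607 to 0.799 in BMDM-WT and 0.601 to 0.67 in BMDM-Nur77-KO. By 5 h it was 2.08 to 2.24 against 0.941 to 1.23, and at 18 h 13.7 to 16.8 against 3.35 to 4.87. The genotypes did not overlap at 5 and 18 h. The Il1a to Il1b ratio was already apart before LPS, at 0.781 to 1.26 in BMDM-Nur77-KO against 0.226 to 0.589 in BMDM-WT at 0 h, on few counts. At 18 h it was 0.887 to 1.34 against 0.491 to 0.669, again without overlap.

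**Figure D3:**
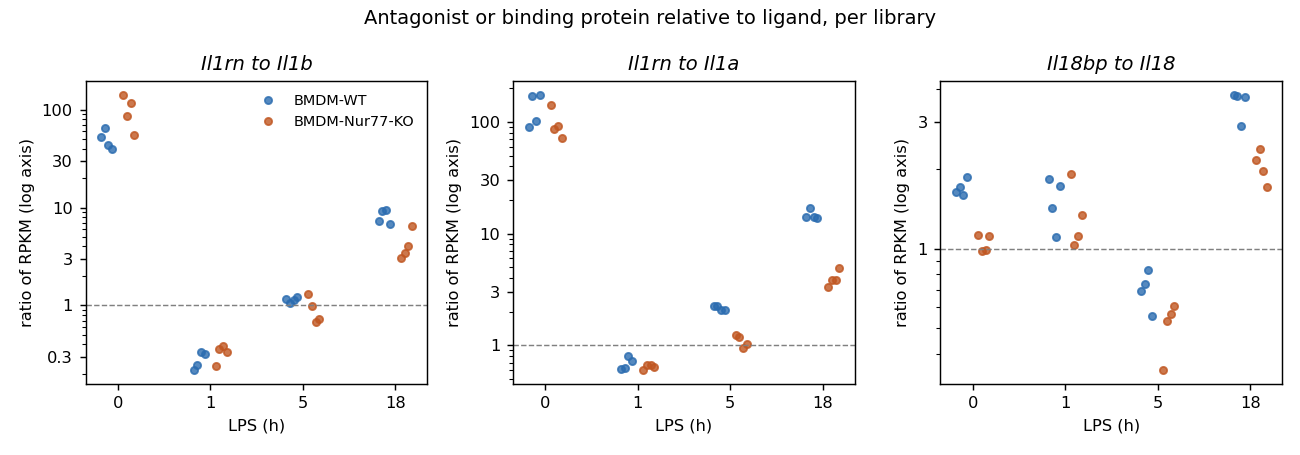
Ratio of length-scaled levels (RPKM) within each library by hours of LPS, on a log axis, with 1 point per library and 4 per group. The Il1rn to Il1a ratio at 18 h was 13.7 to 16.8 in BMDM-WT and 3.35 to 4.87 in BMDM-Nur77-KO.

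Il18, whose product drives interferon-γ release by lymphocytes, responded later than Il1a and Il1b. It was at 2.89 to 6.08 CPM in the 0 h libraries and 3.78 to 6.07 CPM in the 1 h libraries of both genotypes. By 5 h it was at 42.8, 34.9, 40.5 and 48.5 CPM in BMDM-WT and 63.0, 48.2, 42.1 and 44.6 CPM in BMDM-Nur77-KO, with overlap. By 18 h it was at 26.2, 31.2, 34.3 and 27.1 CPM in BMDM-WT and 57.9, 50.3, 58.8 and 68.5 CPM in BMDM-Nur77-KO. The BMDM-Nur77-KO libraries were all above all BMDM-WT libraries, with a log2 fold change of 0.99 ± 0.15 (edgeR, adjusted p = 8.4e-06) and of 0.91 without the library that stood apart. The change of Il18 from 5 to 18 h was -0.49 ± 0.15 in BMDM-WT and 0.25 ± 0.15 in BMDM-Nur77-KO, neither of which passed the limit of 1, and the difference between them was 0.74 ± 0.21 (edgeR interaction, adjusted p = 0.017), or 0.80 without the libraries that stood apart.

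Il18bp, which encodes the soluble inhibitor of IL-18, rose late and was the only tested member with its highest levels at 18 h in both genotypes. It was at 14.2, 10.8, 18.0 and 9.97 CPM in BMDM-WT and 6.60, 8.88, 8.07 and 8.96 CPM in BMDM-Nur77-KO at 0 h. By 18 h it had reached 185, 218, 185 and 187 CPM in BMDM-WT and 232, 221, 214 and 218 CPM in BMDM-Nur77-KO. The genotypes were separate at 0 h, with BMDM-Nur77-KO lower, and overlapped at 18 h. The log2 fold change at 0 h was -0.69 ± 0.15 (edgeR, adjusted p = 0.0017) and -0.51 without replicate 3 of BMDM-WT, under the limit. The value at 18 h was 0.19 (edgeR, adjusted p = 0.29) and 0.20 without the library that stood apart. The LPS response by 18 h differed by 0.88 ± 0.19 (edgeR interaction, adjusted p = 0.002), also at 0.88 without that library. It was 3.87 ± 0.14 in BMDM-WT and 4.76 ± 0.15 in BMDM-Nur77-KO on the log2 scale.

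The ratio of Il18bp to Il18, per length, was 1.60 to 1.86 at 0 h in BMDM-WT and 0.982 to 1.13 in BMDM-Nur77-KO. At 5 h it was at its lowest, 0.558 to 0.833 and 0.348 to 0.607. At 18 h it was 2.91 to 3.80 in BMDM-WT and 1.71 to 2.37 in BMDM-Nur77-KO. The genotypes did not overlap at 0 and 18 h, with less inhibitor transcript per IL-18 transcript in BMDM-Nur77-KO at both.

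Il33, which encodes an alarmin better known from epithelial and stromal cells, had no count in any library at 0 h and at most 1 per library at 1 h. By 5 h it had reached 16.6, 12.1, 13.7 and 12.8 CPM in BMDM-WT and 25.8, 17.1, 13.9 and 13.2 CPM in BMDM-Nur77-KO. Against 3 counts in each 0 h library, the BMDM-WT level was at least 66.9-fold higher and the BMDM-Nur77-KO level at least 75.8-fold higher than before LPS. Both genotypes expressed Il33 at 5 h without a difference that passed the test, at a log2 fold change of 0.34 ± 0.20 (edgeR, adjusted p = 0.22) and 0.10 without the library that stood apart. By 18 h its counts were 2, 2, 0 and 1 in BMDM-WT and 5, 8, 16 and 14 in BMDM-Nur77-KO. The groups did not overlap, and the ratio was 7.87 with a 95% counting interval of 3.12 to 25.5 (log2 fold change 2.86 ± 0.62, edgeR, adjusted p = 0.0013). Without the library that stood apart, the log2 fold change was 2.71. The markers of fibroblasts, a cell type known for Il33, summed to 1.26 to 2.54 CPM in BMDM-Nur77-KO and 0.6 to 1.64 CPM in BMDM-WT at 18 h, which overlapped. At 5 h, when Il33 was highest, they summed to 2.18 to 3.96 CPM and 0.69 to 1.57 CPM, without overlap, and reached the highest sum of any group in BMDM-Nur77-KO. Their part in the Il33 levels was not tested. Before LPS, when Il33 had no counts, they summed to 1.22 to 1.63 CPM and 0.156 to 0.681 CPM.

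Il1rl1, encoding the IL-33 receptor ST2, fell with LPS in both genotypes, and BMDM-Nur77-KO had more of it before LPS. At 0 h it was at 16.7, 21.4, 18.1 and 16.9 CPM in BMDM-WT and 32.8, 38.8, 38.9 and 30.2 CPM in BMDM-Nur77-KO. After 5 h it was at 3.68, 4.31, 3.82 and 3.67 CPM in BMDM-WT and 9.79, 7.70, 6.67 and 7.49 CPM in BMDM-Nur77-KO. The genotypes did not overlap at either time. The log2 fold change was 0.94 ± 0.14 at 0 h (edgeR, adjusted p = 1.1e-05) and 1.03 ± 0.18 at 5 h (adjusted p = 2e-04), or 0.91 at 5 h without the library that stood apart (adjusted p = 0.0015). The value at 1 h was 0.51 ± 0.13 (edgeR, adjusted p = 0.018), under the limit of 0.58, with 19.2 to 29.3 CPM in BMDM-WT and 27.1 to 38.4 CPM in BMDM-Nur77-KO. It passed the limit without replicate 1 of BMDM-Nur77-KO (0.59) or replicate 4 of BMDM-WT (0.62).

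With LPS, Il1rl1 fell by 2.24 ± 0.17 in BMDM-WT and by 2.16 ± 0.15 in BMDM-Nur77-KO on the log2 scale at 5 h, with a difference of 0.08 ± 0.23 (edgeR interaction, adjusted p = 0.91). At 18 h, 2 counts remained over the BMDM-WT libraries and 1 over the BMDM-Nur77-KO libraries. The level at 0 h was 415 times that at 18 h in BMDM-WT (95% counting interval 115 to 3430) and 1730 times in BMDM-Nur77-KO (311 to 68500), and the intervals overlap. The summed markers of mast cells and basophils fell with LPS too, from 3.3 to 4.19 CPM at 0 h to 0.429 to 1.23 CPM at 18 h in BMDM-WT, and from 2.36 to 3.44 to 0.246 to 0.703 CPM in BMDM-Nur77-KO. The fall was that of Kit alone, since Cpa3 and Mcpt8 had at most 2 counts in any library and the other 3 markers none. At 0 h the sums were no higher in BMDM-Nur77-KO. The part of such cells in the Il1rl1 levels was not tested. Il1rl1 makes a long transcript for the membrane receptor, NM_001025602 with 567 coded residues, and shorter ones, NM_010743 and NM_001294171 with 337, for the soluble form. Tested as separate rows among 20956, the long form was higher in BMDM-Nur77-KO by 0.94 at 0 h and 1.00 at 5 h. The rows of the short form were higher by 1.09 and 1.08 at 0 h and by 0.93 and 0.88 at 5 h, but the forms share exons and thus reads.

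Il1rap, the shared accessory chain, rose and then fell in both genotypes. It was at 8.96 to 13.2 CPM in BMDM-WT and 10.7 to 14.8 CPM in BMDM-Nur77-KO at 0 h, 30.0 to 35.9 and 30.4 to 47.1 CPM at 5 h, and 5.14 to 8.91 and 6.37 to 8.72 CPM at 18 h. The groups overlapped at all times. The rise at 5 h was 1.57 ± 0.15 in BMDM-WT and 1.54 ± 0.15 in BMDM-Nur77-KO on the log2 scale. At 18 h the level was below that at 0 h by a log2 fold change of -0.76 ± 0.16 (edgeR, adjusted p = 0.00014) and -0.71 ± 0.16 (adjusted p = 0.00019), under the limit of 1. Between the genotypes the log2 fold change ran from -0.16 at 1 h to 0.25 at 18 h, with adjusted p values from 0.33 to 0.68 (edgeR).

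The genes of the IL-1 binding receptors were near the limit of detection. Il1r1, the signalling receptor, had 8 to 16 counts per library at 0 and 1 h in both genotypes. After 5 h it had 14, 8, 15 and 15 counts in BMDM-WT and 14, 40, 20 and 16 in BMDM-Nur77-KO, which overlapped. Under the looser filter of filterByExpr, which kept 12193 genes, it rose at 5 h by 0.84 ± 0.31 in BMDM-WT (edgeR, adjusted p = 0.016) and by 1.34 ± 0.29 in BMDM-Nur77-KO (adjusted p = 0.00013). Its difference between the genotypes at 5 h was 0.49 ± 0.28 (edgeR, adjusted p = 0.2).

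Il1r2, the decoy, had 2, 0, 0 and 1 counts in BMDM-WT and 0, 1, 0 and 1 in BMDM-Nur77-KO at 0 h. At 1 h it had 5, 5, 8 and 4 counts against 1, 1, 2 and 6, and at 5 h 5, 6, 6 and 10 against 5, 3, 4 and 2. At 5 h the ratio of BMDM-Nur77-KO to BMDM-WT was 0.427 with a 95% counting interval of 0.207 to 0.843, and the CPM values did not overlap. At 18 h the sums were 22 counts in BMDM-Nur77-KO and 19 in BMDM-WT, a ratio of 1.06 (0.547 to 2.07). These intervals cover counting error only, so a difference of this gene between cultures was not tested.

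**Figure D4:**
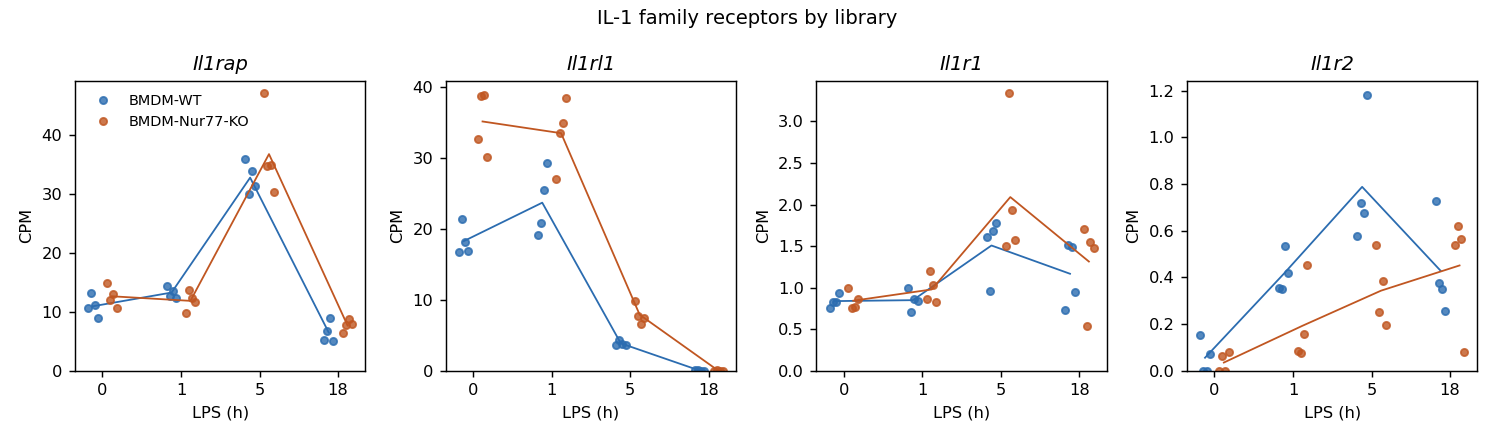
Level of the receptor genes by hours of LPS, in CPM on a linear axis, with 1 point per library and lines through the means of 4 libraries. Il1rl1 was higher in all BMDM-Nur77-KO libraries at 0 h (30.2 to 38.9 against 16.7 to 21.4 CPM) and had at most 1 count per library at 18 h.

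Across the 8 group means, Il1a and Il1b were the most alike of the tested members, with a Pearson r of 0.9903 of their log2 levels. Il1rn was most like Il18 (0.9792), and Il18bp and Il1rl1 ran opposite (-0.9691). Among all genes tested, Gm14023 (0.9988), Mdm2 (0.9952), the ubiquitin ligase of p53, and Ptgs2 (0.993), the inducible cyclooxygenase, were most like Il1a. For Il1b they were Gm14023 (0.9947), the interferon regulatory factor gene Irf1 (0.9942) and Skil (0.993), a repressor of SMAD signalling, and for Il1rn they were Gm19705 (0.9968), the zinc finger gene Plagl2 (0.9966) and the matrix metalloproteinase gene Mmp14 (0.9956). These are descriptions over 8 points that share libraries, and Gm14023 overlaps Il1a.

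Of the remaining IL-1 family, 2 genes of 11 were tested. In BMDM-Nur77-KO, Il1rl2, the receptor of IL-36, was higher at 0 h (0.78 ± 0.18, edgeR, adjusted p = 0.0035) and 1 h (0.66 ± 0.18, adjusted p = 0.016). Il18rap, the accessory chain of the IL-18 receptor, was lower at 1 h (-0.83 ± 0.20, edgeR, adjusted p = 0.0069). With LPS at 5 h, Il18rap rose by 2.12 in BMDM-WT and by 2.58 in BMDM-Nur77-KO, and by 18 h it was below the 0 h level, at log2 fold changes of -2.03 and -1.57. Without the libraries that stood apart, the BMDM-Nur77-KO values were 2.54 at 5 h and -1.86 at 18 h.

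All 11 genes for maturation and release of the cytokines were tested. Between the genotypes, BMDM-Nur77-KO had 1 lower at 1 h (Mefv, encoding pyrin, -0.68 ± 0.18, edgeR, adjusted p = 0.015), 1 was higher at 5 h (Aim2, a sensor of DNA, 0.75 ± 0.21, adjusted p = 0.013), and 2 were higher and 2 lower at 18 h, against 2.85%, 8.55% and 9.75% of all genes called at these times. At 18 h, Casp4, the caspase that senses cytosolic LPS, was higher by 0.79 ± 0.12 (edgeR, adjusted p = 1.2e-05), as was Aim2 (0.86 ± 0.21, adjusted p = 0.0036). Without the libraries that stood apart, Aim2 was at 0.30 at 5 h and 0.57 at 18 h, under the limit at both times, and Casp4, still called, at 0.64. Lower were Pycard, the inflammasome adaptor ASC (-0.69 ± 0.11, edgeR, adjusted p = 9.9e-06), and Nlrp1b, another inflammasome sensor (-1.01 ± 0.17, adjusted p = 3.9e-05). Without the library that stood apart these were -0.68 and -1.13. The median of the list at 18 h was 0.13, against 0.00 for all genes. For Nlrp3, the sensor of the canonical inflammasome, the change from 5 to 18 h differed between the genotypes by 0.67 ± 0.11 (edgeR interaction, adjusted p = 8.7e-05), and without the libraries that stood apart by 0.64. In this comparison, with 13.3% of all genes called, Nlrp1b (-1.15 ± 0.27, edgeR interaction, adjusted p = 0.0034) and Nlrc4, a sensor adaptor (-0.53 ± 0.16, adjusted p = 0.022), had the opposite sign. Casp1 and Gsdmd, the caspase and the pore protein of this route, were not called between the genotypes at any time. At 18 h, Casp1 was nevertheless at 906 ± 111 (SD) CPM in BMDM-Nur77-KO, with all libraries, and 655 ± 59 CPM in BMDM-WT. Gsdmd was at 220 ± 20 and 206 ± 26 CPM. With LPS at 5 h, 7 of the 11 rose and 3 fell in BMDM-WT, and 7 rose and 2 fell in BMDM-Nur77-KO, against 33.6% and 32.5% of all genes called either way. The medians were 1.71 and 1.82 against -0.14 and -0.11 for all genes. Casp4 rose most of the list in both genotypes, by 3.99 and 4.29 (4.13 without the library that stood apart).

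Of the 14 genes of signalling next to the receptor, all tested, 1 was called between the genotypes at 0, 1, 5 or 18 h. At 18 h in BMDM-Nur77-KO, Irak4, the kinase recruited by MyD88, was lower (-0.78 ± 0.08, edgeR, adjusted p = 1.8e-08, and -0.78 without the library that stood apart). This is 1 of 14 where 9.75% of all genes were called, a share near the background. The median at 18 h was 0.05. In the change from 5 to 18 h, 1 gene differed between the genotypes upward and 2 downward, with 13.3% of all genes called. Irak2 was at 0.50 ± 0.14 (edgeR interaction, adjusted p = 0.019), Irak4 at -0.43 ± 0.12 (adjusted p = 0.016) and Map3k7 at -0.33 ± 0.11 (adjusted p = 0.039). Without the libraries that stood apart these were 0.42, -0.36 and -0.30. With LPS at 5 h, 5 rose and 3 fell in both genotypes, where 33.6% and 32.5% of all genes were called. Among those that rose were Myd88, the adaptor of the IL-1 receptor and most Toll-like receptors, by 2.18 in BMDM-WT and 1.60 in BMDM-Nur77-KO, and Irak3, an inhibitory kinase, by 1.52 and 1.52. Without the library that stood apart, the BMDM-Nur77-KO values were 1.76 and 1.28.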

How the data were processed

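The values deposited by the authors are expected counts, not normalized, in 1 table. Paired reads had been mapped to mm10 by the authors with HISAT2 2.1.0 and filtered on mapping quality, and HOMER tags, 0.5 per mate, counted on 42361 RefSeq transcripts. Of the values, 28.6% are not whole. Groups came from the labels.

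Here, 42198 transcripts were named through RefSeq and 70 through GENCODE; 93 unnamed ones (0.233% to 1.37% of tags) were left out. For each gene, the transcript with most counts on average was kept and rounded, giving 8742362 to 15780926 counts per library (median 11847140). In R 4.3.3, edgeR 4.0.16 scaled counts with TMM and fitted 1 quasi-likelihood model with a mean for each of 8 groups. The 11279 genes over 1 RPKM in at least 1 group were tested, with Benjamini-Hochberg adjustment over all. The limits were an adjusted p under 0.05 with a log2 fold change over 0.58 between genotypes and 1 over time, and an adjusted p alone for interactions. In simulated data for BMDM-Nur77-KO against BMDM-WT at 18 h, 97 of 100 genes changed by 1 on the log2 scale and 100 of 100 changed by 2 were recovered, with 3 false calls among the unchanged genes of the 11279. The changed genes were well counted in BMDM-WT at 18 h, unlike Il33 and Il1rl1. No library was simulated to stand apart.

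Lower limits and intervals cover counting error only. The members and lists were chosen with earlier results of these data known. The genes named include all members and the 3 genes most like Il1a, Il1b and Il1rn. Of the 3 pathway lists, all genes called between the genotypes at 0, 1, 5 or 18 h are named. Of their genes called only with LPS, such as Peli1, not all are named. Alternatives were DESeq2 1.42.0, its scaling, filterByExpr, other fold limits, a fit of the compared libraries, every transcript or their sum, a replicate block, and leaving out each library. After seeing the data, the 2 libraries that stood apart were left out together. Markers of neutrophils, dendritic cells, B cells and T cells summed to at most 45.7, 21.9, 4.65 and 38.5 CPM per library. Lck alone reached 38.5 CPM, with Cd3e and Cd3d at most 0.418 and 0.343 CPM, and Xcr1 of the dendritic list reached 20.9 CPM. Neutrophil sums at 1 h were 37.1 to 45.6 CPM in BMDM-Nur77-KO and 25 to 33.8 CPM in BMDM-WT. They overlapped at 0, 5 and 18 h, and their part in the results was not tested.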

Additional observations from a re-analysis of the deposited data

Results flagged for a closer look

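Over 71 groups of 4 libraries examined, 3 held a library far from the others, and chance flags about 1 in 20 groups. Il1a in BMDM-WT at 18 h was at 162 CPM in replicate 3 and 132 to 135 CPM in the others, a gap of 0.901 of the range. Il18bp in BMDM-WT at 18 h was at 218 CPM in replicate 2 and 185 to 187 CPM in the others (0.932). Il1r2 in BMDM-Nur77-KO at 18 h was at 0.0820 CPM, 1 count, in replicate 4 and 0.538 to 0.622 CPM in the others (0.844).

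The effect of LPS at 18 h relative to 0 h differed between the genotypes for Il1a (1.56 ± 0.24 on the log2 scale, edgeR interaction, adjusted p = 3.6e-05), Il1b (1.99 ± 0.25, adjusted p = 1.9e-06), Il18 (0.98 ± 0.25, adjusted p = 0.0095) and Il18bp (0.88 ± 0.19, adjusted p = 0.002), larger in BMDM-Nur77-KO each time. For Il1b and Il18bp part of this lies in lower values in BMDM-Nur77-KO at 0 h. The change from 5 to 18 h differed for Il1a (1.49 ± 0.18), Il1b (1.23 ± 0.19), Il18 (0.74 ± 0.21), Il33 (2.52 ± 0.66) and Il1rn (0.59 ± 0.20), the last with an adjusted p of 0.044 (edgeR interaction). For Il33, this change includes the 5 h groups through which it passed the expression filter.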

How the results depend on the processing

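No called difference of a member changed sign under any alternative run. Counts of called members that moved by over 1.5 times are those of BMDM-Nur77-KO against BMDM-WT at 0 h (4; 0 with a limit of 1 on the log2 scale, 2 in a fit of the compared libraries), 1 h (0; 2 with no fold limit) and 5 h (2; 1 with a limit of 1), of LPS at 1 h in BMDM-Nur77-KO (2; 4 with no fold limit), and of the LPS response between genotypes at 1 h (0; 2 in a fit of the compared libraries, Il1a with an adjusted p of 0.0403 and Il1rn with 0.029, and 1 with DESeq2) and 5 h (0; 1 with DESeq2, 1 without the 2 libraries that stood apart). The cause of these moves was not tested. Smaller moves were from 4 to 3 between the genotypes at 18 h with a limit of 1; with no fold limit, from 7 to 8 for LPS at 18 h in each genotype and from 6 to 8 for 18 h against 5 h in BMDM-WT; from 3 to 2 for LPS at 1 h in BMDM-WT with every transcript tested, Il1rn being just under the limit; from 8 to 9 for LPS at 5 h in BMDM-Nur77-KO with filterByExpr, which also tested Il1r1; and from 5 to 4 for the change from 5 to 18 h between genotypes with DESeq2 scaling, a replicate block or a fit of the compared libraries, each losing Il1rn. That last fit also gave 1 fewer for the genotypes at 18 h, for LPS at 18 h in each genotype and for 18 h against 5 h in BMDM-WT, where Il33 or Il1rl1 was no longer tested. Leaving out single libraries gave 2 to 4 called members at 0 h, 0 to 2 at 1 h and 0 to 1 for the response at 5 h, where Il1b was called once the 0 h replicate 4 of BMDM-Nur77-KO was left out. The calls of Il1a, Il1b, Il18 and Il33 at 18 h held in every leave-one-out fit. With a limit of 1 on the log2 scale, Il18 at 18 h, at 0.99, was not called. Another scaling moved the median of all genes by at most 0.08. Depth limits Il1r1, Il1r2, Il33 at 18 h and Il1rl1 at 18 h.

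Whether replicate numbers pair the samples was checked between the genotypes at each time. A pairing of numbers over time within a genotype was not tested. Same-numbered samples had correlations of their deviations of -0.05 to 0.24 at 0 h and -0.05 to 0.25 at 1 h. These were -0.10 to 0.12 at 5 h and -0.37 to 0.16 at 18 h. With a replicate block, 4 rather than 5 members differed in the change from 5 to 18 h, Il1rn being lost (0.57, adjusted p = 0.067), and no other call changed. Of 4 libraries, 2, 2, 0 and 0 correlated best with their own number at 0, 1, 5 and 18 h.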
